A study of Mus musculus with 7 samples.

Results

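Receptors that signal through JAK kinases, the kinases and STAT factors they use and the enzymes that switch them off were examined as a set of 39 genes in mouse alveolar macrophages. The set leaves out the family that shares the beta common chain. It was chosen by gene symbol, and all 39 were found among the 26143 named genes of the count table. Cells came from C57BL/6 mice aged 4 months, as 3 libraries of Cish knockout (KO) mice and 4 of wild-type (WT) mice. Both groups were sorted resident macrophages of the lung airspaces, sequenced without any treatment named in the labels. The labels do not give the knocked-out exons, the sex, or the number of mice behind a library, so the spread behind each p-value is that among libraries, which may be technical.

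Cytokine receptors of this class have no enzyme of their own. A JAK kinase bound to each chain phosphorylates the receptor when the ligand draws chains together, STAT factors dock there, and phosphorylated STATs enter the nucleus. Tyrosine phosphatases, PIAS proteins and SOCS proteins, with Cish among the last, damp the signal. Csf1r is an exception in the set, since it is a receptor tyrosine kinase, and Il17ra signals mainly through the adaptor Act1 rather than through JAKs.

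Library totals lay between 26780291 and 30989230 counts in KO and between 30637634 and 34483612 in WT. Cish had 12.9, 14.3 and 10.9 CPM (counts scaled to library size with TMM factors) in KO 1 to KO 3, against 46.3, 29.6, 38.1 and 67.9 CPM in WT 1 to WT 4, without overlap. All 20 alveolar macrophage markers were detected and tested, and DESeq2 called 6 of them, Siglecf, Ear1, Krt19 and Cidec lower and Ctsk and Mrc1 higher in KO. Over all genes, DESeq2 called 5.71%. The neutrophil marker Ly6g had no read in any library, and the 14 neutrophil markers summed to 14.7 to 36.8 CPM in KO and 8.62 to 22.2 CPM in WT. The 12 T cell markers summed to 11.0 to 26.1 CPM in KO and 5.92 to 13.4 CPM in WT. Markers of endothelium summed to 22.5 to 35.6 CPM in KO and 13 to 18.8 CPM in WT, and 4 of those 7 were higher in KO by DESeq2, as was 1 marker each of T cells, of NK cells and of eosinophils, basophils and mast cells. Epithelial markers summed to 124 to 161 CPM in KO and 166 to 350 CPM in WT, and red cell markers to 284 to 855 CPM in KO and 13.5 to 348 CPM in WT. Whether these other cells take part in the results below was not tested. Counts from bulk cells cannot tell apart fewer cells of a type and less RNA per cell. On the leading principal component of all tested genes, with 42.6% of the variance, KO 1 to KO 3 lay at -43.9, -24.7 and -18.3 and WT 1 to WT 3 at 24.1, 30.6 and 39.4. WT 4 lay at -7.27, between the groups. The columns of WT 4 and KO 3 stand last in the deposited table, after the other libraries of both genotypes, and the labels name no batch. Whether these libraries were prepared apart was not tested.

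Most of the machinery was present, and few members stood far apart between genotypes. Of the 39, 35 passed the filter on low counts and were tested with edgeR's quasi-likelihood test, in which 0 passed after adjustment over all genes (smallest adjusted p 0.106), where 0.0862% of all tested genes did, 0.047% higher and 0.0392% lower in KO. Before adjustment, 10 members had p below 0.05, 8 lower and 2 higher in KO. Among all tested genes 18% had such a p, 8.85% lower and 9.15% higher in KO. The 10 were Csf3r, Il13ra1, Il10ra, Il17ra, Stat6, Lyn, Ptpn6 and Sh2b3 on the lower side and Il2rg and Il11ra1 on the higher side. DESeq2 called 3 members of the 36 it tested, Csf3r and Il13ra1 lower and Il11ra1 higher in KO, where it called 5.71% of all genes, 3.02% lower and 2.68% higher. CPM did not overlap between the groups for 5 tested members, against 16% of tested genes. Il13ra1, Il10ra and Lyn were lower in KO (8.72% of tested genes were so), and Il2rg and Il11ra1 were higher (7.23%).

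Most differences within the set were below 1.5-fold. The median log2 fold change of the 35 was -0.14, against 0.00 over all genes tested, and the median of its absolute value was 0.21, against 0.16 over all genes. Of the 35, 20 were lower and 15 higher in KO. For 22 of the 35 the genotypes lay within 1.2-fold of each other, and for 32 within 1.5-fold. The 3 outside that range were Csf3r, Il11ra1 and the barely detected Il21r. The 25 members with an unadjusted p of 0.05 or above had log2 fold changes from -0.51 to 0.78, 13 of them higher and 12 lower in KO. Those p-values lay between 0.0657 and 0.927.

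**Figure D1:**
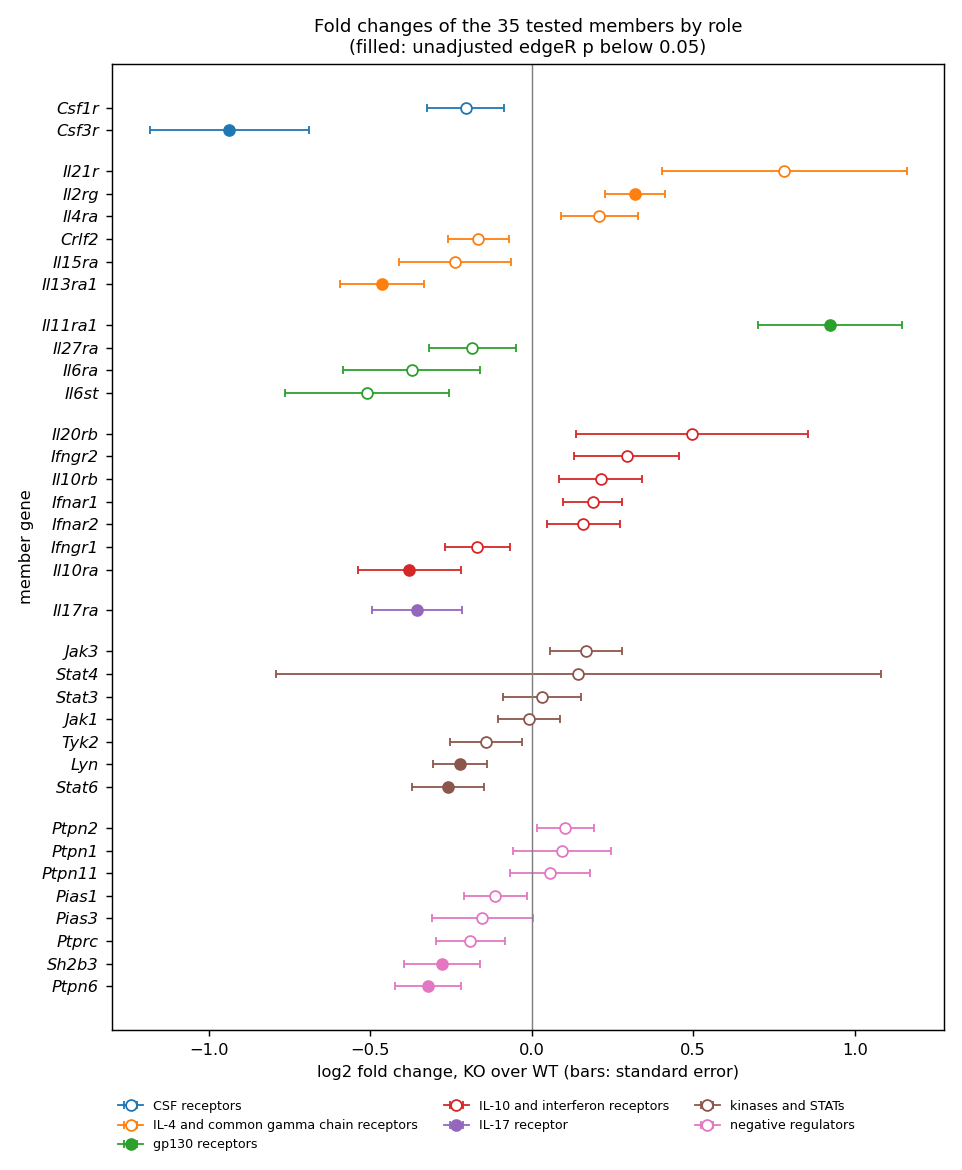
log2 fold change of each tested member, KO over WT, on the horizontal axis, with bars for the standard error from edgeR, grouped by role. Csf3r (-0.94) and Il11ra1 (0.92) lie farthest from 0, and most of the other members lie within 0.5 of it.

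The levels set the scale of the system. Per kilobase of merged exon, which allows genes to be compared, the phosphatase Ptpn6 (SHP-1) stood highest, at 151 CPM per kilobase in KO and 188 in WT on average. The interferon gamma receptor chain Ifngr1 followed with 102 in KO and 114 in WT, and the Src family kinase Lyn with 84.4 in KO and 98.4 in WT. Ptpn1 (PTP1B) was at 63.0 and Il13ra1 at 41.3 CPM per kilobase in KO, against 59.1 and 57.0 in WT. In all, 21 members had a mean above 10 CPM per kilobase and 32 above 1.

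At the other end, 5 members stayed under 1 CPM in every library: Il2ra, Lifr, Osmr, Il12rb1 and Stat4. Stat4, the factor of IL-12 signalling, had 0.858, 0.0777 and 0.257 CPM in KO and 0.671, 0.469, 0 and 0.313 CPM in WT. Il12rb1, a chain of the IL-12 and IL-23 receptors, had between 1 and 3 reads in each KO library and 1 to 7 in each WT library. The receptor chains Lifr, for LIF, and Osmr, for oncostatin M, had 8 to 16 and 1 to 6 reads in KO, and 1 to 9 and 0 to 4 in WT. Il2ra, the IL-2 receptor alpha chain, had 18, 6 and 4 reads in KO and 4, 0, 1 and 4 in WT. Of these 5, only Stat4 passed the filter. Every KO library was above every WT library for Il2ra and for Lifr, at few reads, and DESeq2 gave Lifr an adjusted p of 0.258 and Il2ra none.

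**Figure D2:**
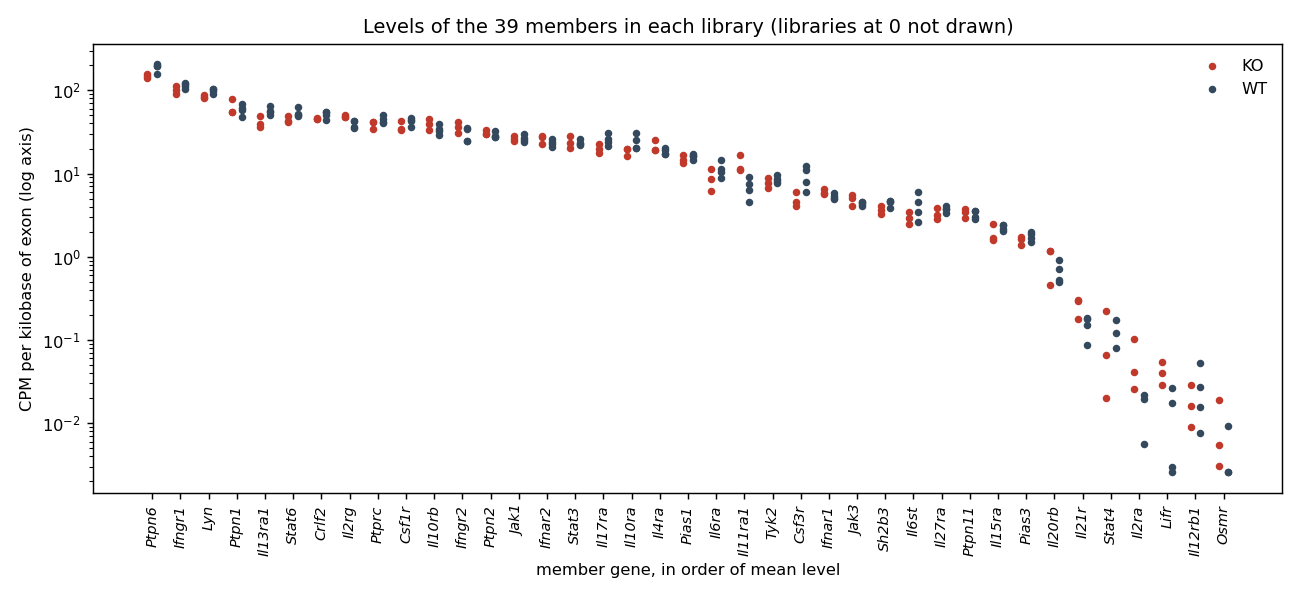
Level of each member in every library as CPM per kilobase of exon on a log axis, with KO points left of WT points and members in order of mean level. Ptpn6, Ifngr1 and Lyn lead, and Il2ra, Lifr, Il12rb1 and Osmr close the order.

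Csf3r, the receptor for G-CSF best known from neutrophils, had the largest difference on the lower side among the 35 members tested with edgeR. It lies on chromosome 4 at 126024550 to 126044440 (mm10, GENCODE M21). The level was 14.6, 21.6 and 16.6 CPM in KO 1 to KO 3, against 39.8, 44.4, 29.0 and 21.4 CPM in WT 1 to WT 4. WT 4 was level with KO 2, and the other 3 WT libraries were above every KO library. The mean was 17.6 ± 3.60 CPM (SD, n = 3) in KO and 33.7 ± 10.4 CPM (SD, n = 4) in WT, 1.91-fold lower in KO. The log2 fold change was -0.94 (SE 0.25), with an edgeR adjusted p of 0.120 and a DESeq2 one of 0.00421. Leaving out WT 4 took it past the edgeR threshold (adjusted p 0.0412), and the DESeq2 call ended without KO 1 (adjusted p 0.0859). The neutrophil marker sums given above overlapped between the genotypes, and S100a8 made up most of each. S100a8 averaged 19.0 CPM in KO and 9.45 CPM in WT (log2 fold change 1.01, edgeR adjusted p 0.253). The other neutrophil markers tested did not share that rise. Cxcr2, Lcn2 and S100a9 had log2 fold changes of -0.18, -0.30 and -0.10, and Il1r2 had 0.05. Whether neutrophils contribute to the Csf3r values was not tested.

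Csf1r, the receptor for M-CSF and IL-34 on which most tissue macrophages depend, was the other member of its group. It had 200, 191 and 245 CPM in KO, against 255, 249, 207 and 266 CPM in WT, with overlap. Its log2 fold change was -0.20 (SE 0.12, edgeR adjusted p 0.398). Exons of Hmgxb3 cover 15.1% of its exon bases from the opposite strand, and the libraries do not keep the strand.

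Il11ra1, the alpha chain that binds IL-11, had the largest difference on the higher side among those 35. It lies on chromosome 4 at 41699989 to 41769474. It had 74.8, 50.2 and 49.0 CPM in KO, against 33.2, 20.5, 28.6 and 40.2 CPM in WT, and every KO library was above every WT library. KO was 1.90-fold above WT on average (log2 fold change 0.92, SE 0.22), and the adjusted p was 0.106 in edgeR and 0.00218 in DESeq2. Leaving out WT 4 brought the edgeR value to 0.0481, and the DESeq2 call ended without KO 1 (0.0962). Its close paralog Il11ra2 was higher by 0.86 on the log2 scale (edgeR adjusted p 0.192) at a lower level, 5.51 CPM in KO and 3.03 CPM in WT on average. Reads of the pair may be shared, and their sum was higher by 0.92 on that scale (SE 0.23, edgeR adjusted p 0.107). The gene model Gm13305 was examined beside them and is not in that sum. It had 5.91 CPM in KO and 2.78 CPM in WT on average, with every KO library above every WT library. Its log2 fold change was 1.09 (adjusted p 0.133 in edgeR, 0.0169 in DESeq2). Whether it shares reads with Il11ra1 was not tested.

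The 300 bases around an annotated start of Csf3r and of Il11ra1 are shown because these members differ most among those tested, in opposite directions. Il11ra1 has another annotated start, whose window (chr4:41760193-41760492) holds no GAGGAAG and is not printed. They run from 250 bases before the start to 50 after it, on the plus strand in both cases, as RefSeq gives them on GRCm38.p6 (mm10). Capitals mark GAGGAAG, a core bound by the macrophage factor PU.1.
Csf3r, chr4:126024409-126024708: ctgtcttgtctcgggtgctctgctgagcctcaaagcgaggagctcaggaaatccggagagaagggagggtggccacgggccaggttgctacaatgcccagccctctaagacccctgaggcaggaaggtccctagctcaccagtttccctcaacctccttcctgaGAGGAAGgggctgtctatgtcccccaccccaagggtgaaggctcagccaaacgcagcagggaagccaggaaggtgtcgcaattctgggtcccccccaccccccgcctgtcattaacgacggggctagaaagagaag
Il11ra1, chr4:41762060-41762359: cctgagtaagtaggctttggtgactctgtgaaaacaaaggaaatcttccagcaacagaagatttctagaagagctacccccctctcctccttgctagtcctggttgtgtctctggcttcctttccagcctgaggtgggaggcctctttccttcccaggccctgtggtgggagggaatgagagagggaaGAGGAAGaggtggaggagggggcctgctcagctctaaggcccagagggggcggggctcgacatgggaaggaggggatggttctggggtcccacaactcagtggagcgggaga
The match begins 86 bases before the start in Csf3r and 62 before it in Il11ra1. Read on both strands, GAGGAAG was present in the windows of 5 of the 31 members found in that table (Crlf2, Csf3r, Il11ra1, Il15ra and Stat6), in 13.5% of their 37 windows and in 13.6% of all 32817 windows. The STAT palindrome TTCNNNGAA was present for 2 members, Ifnar1 and Ifnar2, in 5.41% of member windows and 8.29% of all windows. A match describes letters and not a bound site.

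Of the other members of the gp130 group, none passed in edgeR or DESeq2 with all 7 libraries, though DESeq2 called Il6ra lower without KO 2 and Il6st lower without WT 1. Il6st encodes gp130, the shared signalling chain that Il11ra1 and Il6ra need. It had 32.2, 27.5 and 37.9 CPM in KO, against 29.2, 67.4, 50.5 and 38.4 CPM in WT, with WT 1 inside the KO range. Its log2 fold change was -0.51 (SE 0.25, edgeR adjusted p 0.329). Per kilobase, the ratio of Il11ra1 to Il6st was 5.76, 4.54 and 3.21 in KO, against 2.82, 0.756, 1.4 and 2.60 in WT, without overlap. The ratio was formed after the values were seen and has no test.

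Il6ra, the IL-6 receptor alpha chain, was the gp130 group member with the highest mean per kilobase, and it varied widely within each genotype. It had 53.8, 98 and 75.2 CPM in KO, against 125, 77.4, 99.3 and 89.2 CPM in WT, with overlap (log2 fold change -0.37, SE 0.21, edgeR adjusted p 0.392). Il27ra, the IL-27 receptor alpha chain, had 11.5 ± 1.73 CPM (SD, n = 3) in KO and 13.1 ± 1.10 CPM (SD, n = 4) in WT. Of the gp130 group of 7, edgeR tested Il11ra1, Il6st, Il6ra and Il27ra.

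Among the chains of the IL-4 and IL-13 receptors, Il13ra1 was called lower in KO by DESeq2. With all libraries, Il2rg and Il4ra were called by neither tool. Type I receptors join Il4ra to the common gamma chain Il2rg and bind IL-4, and type II receptors join Il4ra to Il13ra1 and bind IL-4 and IL-13. Il13ra1 (chromosome X, 36112110 to 36171259) had 134, 145 and 182 CPM in KO, against 210, 244, 205 and 187 CPM in WT. The groups did not overlap, but KO 3 lay close to WT 4. It was 1.38-fold lower in KO (log2 fold change -0.46, SE 0.13), and the adjusted p was 0.131 in edgeR and 0.0207 in DESeq2. The DESeq2 call ended without KO 1, KO 2, WT 1, WT 2 or WT 3 (adjusted p 0.0525 to 0.283).

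Il2rg (chromosome X, 101264378 to 101268255) had 122, 114 and 115 CPM in KO, against 102, 84.2, 87.1 and 102 CPM in WT. Every KO library was above every WT library. The log2 fold change was 0.32 (SE 0.09), and neither tool called Il2rg with all libraries (adjusted p 0.141 in edgeR, 0.0571 in DESeq2). Without WT 4, DESeq2 called Il2rg higher in KO. Gm20489, which is not in the count table, shares 30.5% of its exon bases on the same strand. Il4ra had 116, 114 and 152 CPM in KO, against 114, 104, 102 and 121 CPM in WT, and the groups overlapped through KO 1, KO 2, WT 1 and WT 4 (log2 fold change 0.21, SE 0.12, edgeR adjusted p 0.392).

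Set against each other per kilobase, the ratio of Il2rg to Il13ra1 was 1.42, 1.23 and 0.986 in KO, against 0.756, 0.536, 0.659 and 0.851 in WT. The ratio of Il4ra to Il13ra1 was 0.536, 0.488 and 0.518 in KO, against 0.337, 0.262, 0.307 and 0.402 in WT. Neither ratio overlapped between genotypes, and both were formed after the values were seen, so no test is given. Both X-linked genes were read from libraries with the same sex-linked pattern: Xist had at most 1 read in a library, and the Y-linked Ddx3y had 82.4 to 94.9 CPM in KO and 77.1 to 106 CPM in WT.

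The other receptors that use the common gamma chain or resemble it were lowly counted or overlapped between genotypes. Il21r, the IL-21 receptor, had 0.990, 1.01 and 0.588 CPM in KO, against 0.615, 0.594, 0.286 and 0.50 CPM in WT, from 9 to 30 reads a library (log2 fold change 0.78, SE 0.38, edgeR adjusted p 0.317). Il15ra, which presents IL-15, had 7.07, 11.0 and 7.50 CPM in KO, against 10.7, 9.10, 10.7 and 9.70 CPM in WT (edgeR adjusted p 0.503). Crlf2, the TSLP receptor chain, had the smallest SD relative to its mean of any member among KO libraries, at 68.6 ± 0.736 CPM (SD, n = 3), against 76.9 ± 7.97 CPM (SD, n = 4) in WT.

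**Figure D3:**
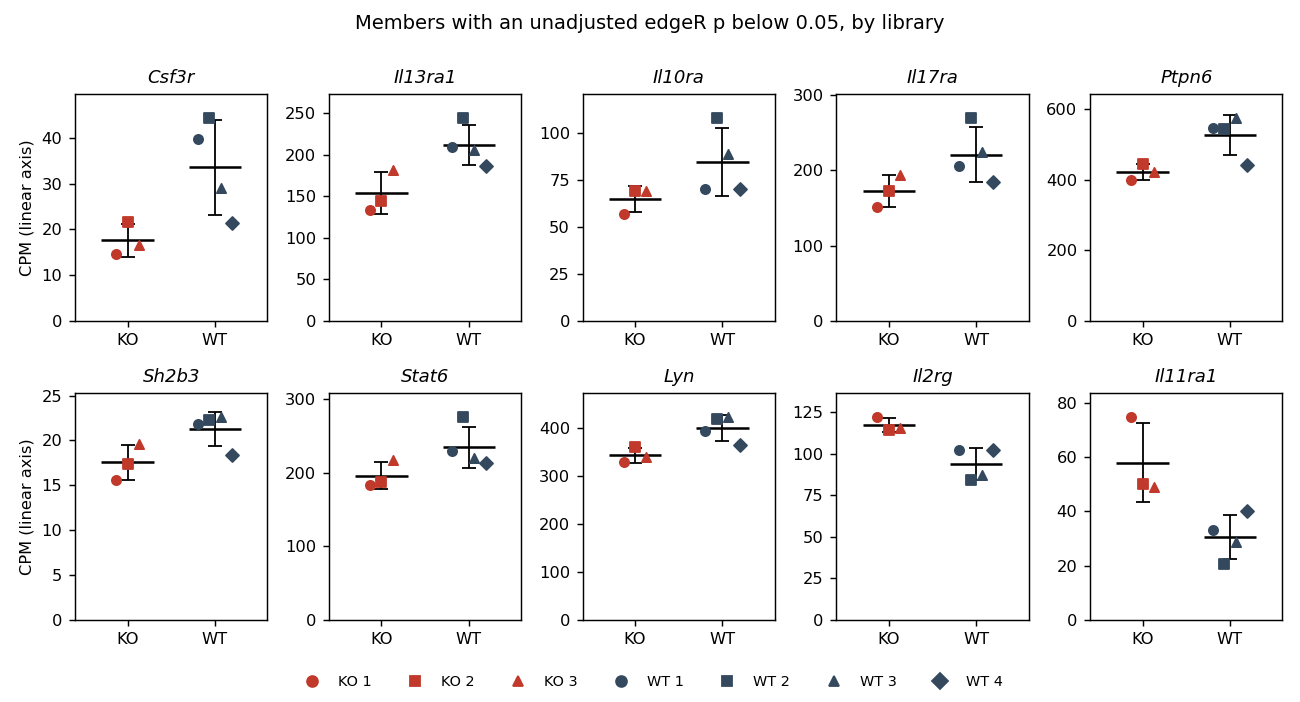
CPM of the 10 members with an unadjusted edgeR p below 0.05 in each library, on linear axes from 0, with a horizontal line for the group mean and bars for the SD (n = 3 KO, n = 4 WT). In every panel the WT library nearest to KO is WT 4, drawn as a diamond.

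Receptors for IL-10 and for interferons form a family of paired chains. Il10ra, the chain that binds IL-10, had 56.9, 69.1 and 69.0 CPM in KO, against 70.4, 108, 89.2 and 70.2 CPM in WT. The groups did not overlap, yet KO 2, KO 3, WT 1 and WT 4 lay close together. Its log2 fold change was -0.38 (SE 0.16, unadjusted p 0.0416, edgeR adjusted p 0.255). Its partner Il10rb, shared with other receptors of the family, had 170, 150 and 129 CPM in KO, against 130, 111, 124 and 152 CPM in WT (log2 fold change 0.21, SE 0.13, edgeR adjusted p 0.412).

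Ifngr1, the ligand-binding chain for interferon gamma, had 259, 288 and 322 CPM in KO, against 337, 294, 323 and 349 CPM in WT, with overlap (log2 fold change -0.17, edgeR adjusted p 0.409). Ifngr2, the chain that brings JAK2 to that receptor, had 158, 137 and 117 CPM in KO, against 129, 92.5, 93.1 and 133 CPM in WT (log2 fold change 0.29, SE 0.16, edgeR adjusted p 0.376). Per kilobase Ifngr1 exceeded Ifngr2 in every library, 2.17 to 3.66 times in KO and 3.45 to 4.59 times in WT.

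Ifnar1 and Ifnar2 make the type I interferon receptor. Ifnar1 averaged 36.0 ± 2.83 CPM (SD, n = 3) in KO and 31.6 ± 2.11 CPM (SD, n = 4) in WT, and Ifnar2 87.1 ± 10.6 CPM in KO and 77.9 ± 8.17 CPM in WT. Neither passed (edgeR adjusted p 0.313 and 0.488). The 4 genes Ifnar2, Il10rb, Ifnar1 and Ifngr2 lie in a cluster on chromosome 16, between 91372783 and 91565623, and all 4 had log2 fold changes between 0.16 and 0.29, none with an unadjusted p below 0.05. The gene model Gm21970 shares exon bases with Ifnar2 and Il10rb on the same strand. Il20rb, a receptor chain for IL-20 type cytokines, was low at 3.93 ± 1.75 CPM in KO and 2.79 ± 0.822 CPM in WT.

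Il17ra, the IL-17 receptor chain, had 152, 173 and 194 CPM in KO, against 206, 270, 225 and 184 CPM in WT. Only KO 3 and WT 4 overlapped. Its log2 fold change of -0.35 (SE 0.14) had an unadjusted p of 0.0304 in edgeR, 0.226 after adjustment.

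Among the kinases and STAT factors, 7 of 7 were tested and 2, both lower in KO, had an unadjusted p below 0.05. Among all tested genes 18% had such a p in edgeR, 8.85% lower in KO. Lyn, a Src family kinase that phosphorylates both activating and inhibitory receptors, had 329, 362 and 340 CPM in KO, against 396, 420, 423 and 365 CPM in WT. The groups did not overlap, though KO 2 and WT 4 lay close together (log2 fold change -0.22, SE 0.08, edgeR adjusted p 0.215). Stat6, the factor of IL-4 and IL-13 signalling, had 184, 187 and 217 CPM in KO, against 229, 276, 221 and 214 CPM in WT. KO 3 lay above WT 4 there, and the log2 fold change was -0.26 (SE 0.11, edgeR adjusted p 0.258).

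Jak1, the kinase most widely shared among these receptors, had the smallest difference of the set, 191 ± 13.9 CPM (SD, n = 3) in KO and 192 ± 18.1 CPM (SD, n = 4) in WT. Stat3, the main factor of IL-6 and IL-10 signalling, averaged 229 ± 40.5 CPM in KO and 224 ± 15.4 CPM in WT. Jak3, the kinase of the common gamma chain, was at 26.3 ± 3.90 CPM in KO and 23.4 ± 1.16 CPM in WT, and Tyk2 at 53.2 ± 6.94 CPM in KO and 58.6 ± 5.78 CPM in WT. None of these 4 had an unadjusted p below 0.05.

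The negative regulators held the member with the highest level per kilobase. Ptpn6, the phosphatase that inhibitory receptors recruit to their ITIM motifs, lies on chromosome 6 at 124720707 to 124738714. It had 399, 447 and 421 CPM in KO, against 546, 545, 576 and 444 CPM in WT. WT 1 to WT 3 were all well above every KO library, and WT 4 was inside the KO range. The log2 fold change was -0.32 (SE 0.10), with an unadjusted p of 0.0123, and adjustment gave 0.165 in edgeR and 0.0604 in DESeq2. Without WT 4 the fold change was -0.39, with an edgeR adjusted p of 0.0534. DESeq2 called Ptpn6 lower without WT 4, and also without WT 4 and KO 3 together.

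Sh2b3, the adaptor LNK that restrains JAK2 and growth factor receptors, had 15.6, 17.4 and 19.6 CPM in KO, against 21.8, 22.3, 22.6 and 18.4 CPM in WT (log2 fold change -0.28, SE 0.12, edgeR adjusted p 0.255). Only KO 3 and WT 4 overlapped, as for Il17ra. Ptprc (CD45), which activates Src family kinases and can dephosphorylate JAKs, averaged 716 ± 72.8 CPM in KO and 817 ± 80.4 CPM in WT (log2 fold change -0.19, edgeR adjusted p 0.383).

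The remaining regulators differed less. Ptpn1, which dephosphorylates JAK2 and TYK2, averaged 349 ± 71.2 CPM in KO and 327 ± 45.9 CPM in WT. Ptpn2 (TC-PTP), which acts on JAK1 and JAK3, averaged 97.2 ± 5.15 CPM in KO and 90.4 ± 7.77 CPM in WT. Ptpn11 (SHP-2), a phosphatase that mostly promotes growth factor signalling, averaged 25.2 ± 3.19 CPM in KO and 24.2 ± 2.82 CPM in WT. The SUMO ligases Pias1 and Pias3 averaged 101 ± 12.0 and 6.22 ± 0.674 CPM in KO, and 110 ± 6.39 and 6.91 ± 0.840 CPM in WT.

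Libraries WT 4 and KO 3 crossed the genotypes within the set. For 22 of 35 tested members WT 4 was nearer to the KO mean than to the mean of the other WT libraries, and for 21 of 35 KO 3 was nearer to the WT mean than to the other KO libraries. In the other 5 libraries this held for 6 to 12 members. No such share was computed over all tested genes, on whose leading principal component WT 4 also lay between the groups. For a KO library, the KO mean rested on fewer libraries than the WT mean. For all 10 members with an unadjusted p below 0.05, WT 4 was the WT library nearest to KO, against 48.6% of all genes with such a p. For Il2rg (102.08 CPM in WT 1, 102.13 CPM in WT 4) and Il10ra (70.4 and 70.2 CPM), WT 1 was almost as near. Without WT 4, edgeR called 2 members, Csf3r and Il11ra1, and 2.25% of all genes. Without WT 4 and KO 3 together it called 3, Csf3r, Il13ra1 and Il11ra1, and 4.57% of all genes, and 17 members had an unadjusted p below 0.05, as did 21.9% of all genes. That count was 5 without KO 1 (9.43% of all genes) and 6 without WT 2 (15%).

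DESeq2 called 6 members without WT 4, where it called 8.28% of all genes. They were Csf3r, Il13ra1, Il17ra and Ptpn6 (lower in KO) and Il2rg and Il11ra1 (higher). Without WT 4 and KO 3 together DESeq2 called 7, where it called 9.08% of all genes. These were Csf3r, Il13ra1, Il17ra, Ptpn6 and Sh2b3 (lower) and Il11ra1 and Il10rb (higher). It called 0 without KO 1, where it called 1.1% of all genes. These DESeq2 refits were chosen after the data were seen.

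**Figure D4:**
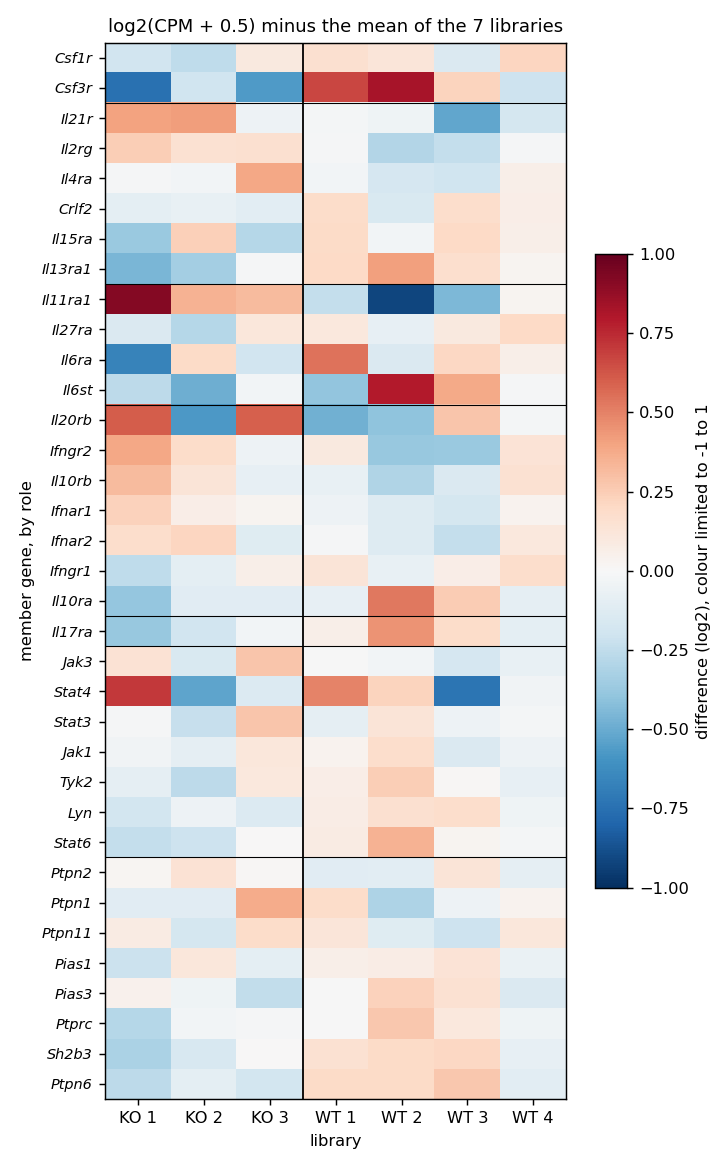
log2(CPM + 0.5) of each tested member in each library minus its mean over the 7 libraries, members grouped by role and KO columns left of WT columns. Csf3r is blue (lower) in the KO columns and Il11ra1 red (higher), and the WT 4 column is pale or on the KO side for both.

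Genes of the same pathway outside the set gave the context. Of 87 other receptors, kinases, regulators and ligands, 60 were tested. edgeR called 0 of them, with 18 at an unadjusted p below 0.05 (30% of the 60, against 18% of all genes), 12 higher and 6 lower in KO. DESeq2 called 8 of the 61 it tested, or 13.1%, against 5.71% of all genes. The 8 include Cish, the gene knocked out, which raises that share. The median log2 fold change of the 60 was 0.07. The Src family kinase Fgr, a relative of Lyn, was lower by DESeq2. Fgr had 173, 255 and 248 CPM in KO, against 361, 344, 342 and 293 CPM in WT (log2 fold change -0.57, adjusted p 0.109 in edgeR, 0.00565 in DESeq2). Every KO library was below every WT library.

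Of the other receptors, 12 of 24 were tested. DESeq2 called Il3ra, the IL-3 receptor alpha chain, lower (5.70 CPM in KO and 9.57 CPM in WT, adjusted p 0.0138) and Il7r, the IL-7 receptor, higher (3.97 CPM in KO and 1.18 CPM in WT, adjusted p 0.0312). Il7r is also on the T cell list, and KO 2 at 0.932 CPM lay below WT 1 and WT 4. Of the 26 other regulators, all tested, DESeq2 called Cish and Dusp22 lower and Socs3 and Usp18 higher. Dusp22, a phosphatase, had 21.5 ± 1.87 CPM (SD, n = 3) in KO and 28.4 ± 2.15 CPM (SD, n = 4) in WT (DESeq2 adjusted p 0.0213). The factors Stat5a and Stat5b and the kinase Jak2 had log2 fold changes between 0.05 and 0.12 with no unadjusted p below 0.05.

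Targets of the STAT factors in the set were listed as well. Of 14 tested STAT3 targets, DESeq2 called 3, all higher in KO, namely Socs3, the kinase Pim1 and the growth factor Vegfa, and edgeR called 0 with 4 at an unadjusted p below 0.05. The list's median log2 fold change was 0.18. Over all genes, DESeq2 called 5.71% and 18% had such a p in edgeR. Of 15 interferon gamma targets DESeq2 called 1, the MHC class II regulator Ciita, lower in KO, and edgeR called 0 with 5 at an unadjusted p below 0.05 (median 0.07).

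Of 14 tested STAT6 targets DESeq2 called 1, the mannose receptor Mrc1, which was higher in KO (630 CPM against 515 CPM in WT, adjusted p 0.0370), and edgeR called 0 with 4 at an unadjusted p below 0.05 (median 0.48). Over all genes, DESeq2 called 5.71% and 18% had such a p in edgeR. Several genes of the list spread widely among libraries of the same genotype. The chemokine Ccl17 had 111, 6.84 and 230 CPM in KO, against 1.2, 0.313, 0.764 and 58.4 CPM in WT. Arginase Arg1 had 5.65, 1.4 and 16.0 CPM in KO, against 0.168, 0.125, 0.350 and 18.1 CPM in WT. Of the 14, WT 4 was the highest WT library for 10 and KO 3 the highest KO library for 11. In WT 4 the receptor chain Il4ra was at 121 CPM and Stat6 at 214 CPM, the highest and the lowest of the WT libraries. In KO 3 Il4ra was at 152 CPM and Stat6 at 217 CPM, both the highest of the KO libraries.

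**Figure D5:**
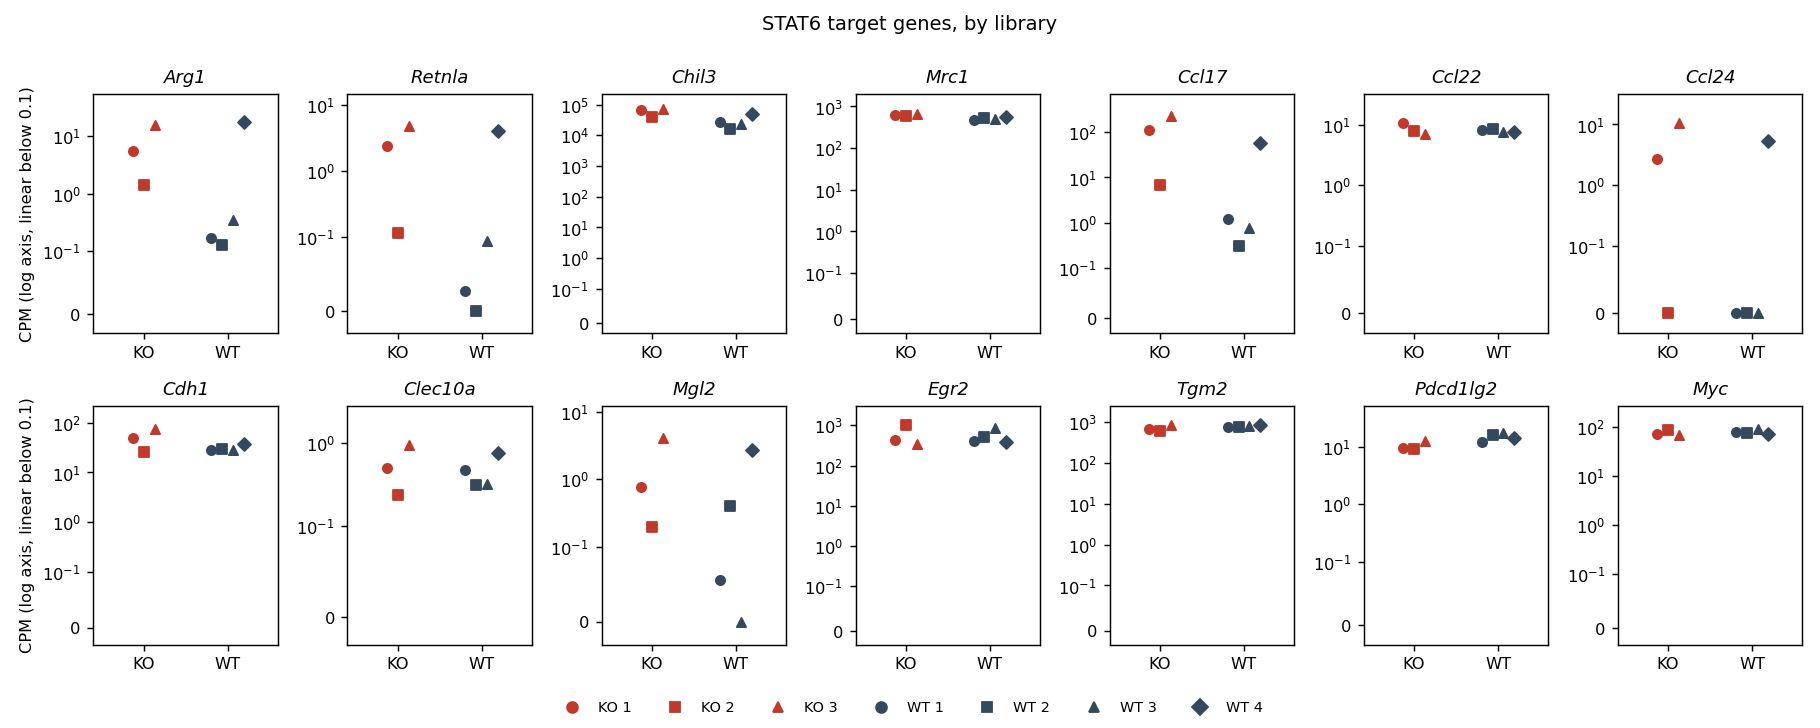
CPM of the 14 tested STAT6 targets in each library on a log axis that is linear below 0.1, KO left of WT. Arg1, Retnla, Ccl17, Ccl24 and Mgl2 are high in KO 3 and WT 4 and lower in the other WT libraries. The mean log2(CPM + 1) of the 14 was also high in KO 1, at 5.49, 4.745 and 6.01 in KO 1 to KO 3. In WT 1 to WT 4 it was 4.44, 4.41, 4.53 and 5.66.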

How the data were processed

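Sorted alveolar macrophages were collected in TRIzol LS and sequenced from Nextera XT libraries, per the labels' protocols. The deposited values are raw read counts per gene symbol that the authors made with rsubread, per the file name; mm10 and DESeq2 are named in the submitters' processing notes. No source used here gives the annotation, the treatment of reads with several matches or any batch. Nextera XT does not mark strand. Of 27179 rows, 1036 without a symbol (0.376% to 0.424% of counts) were left out.

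In R 4.3.3, edgeR 4.0.16 (filterByExpr, TMM, quasi-likelihood F test on genotype, 3 KO against 4 WT libraries, 5 residual degrees of freedom) tested 12759 genes, with Benjamini-Hochberg adjusted p below 0.05 as the threshold. CPM are counts over TMM-scaled library sizes. Merged exon lengths and positions come from GENCODE M21 and promoters from RefSeq GRCm38.p6, so levels per kilobase depend on that annotation. Alternatives were DESeq2 1.42.0, limma 3.58.1 voom, other scalings and filters, a replicate block and omitted libraries. Members and lists were chosen with earlier results of these data known. Values of every library are given for members with an unadjusted p below 0.05, the member highest per kilobase in each role, and their partner chains; any other gene is named by list or after its values were seen. Some genes of the lists are not reported here.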

Additional observations from a re-analysis of the deposited data

Results flagged for a closer look

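Ptpn2, the phosphatase TC-PTP, had a WT library far from the others. WT 3 stood at 102 CPM, and WT 1, WT 2 and WT 4 lay between 86.0 and 87.4 CPM, so that the gap took a share of 0.911 of the range, above Dixon's limit for groups of 4. The KO libraries had 94.6, 103 and 93.9 CPM. Chance flags about 1 in 20 groups, and 1 of the 39 members was flagged.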

How the results depend on the processing

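Of the members given by library, 19 were refitted by name (not Stat4 or Ptpn2), with 303 values over the alternatives, and 0 of these changed direction. Of these, 291 stayed above an adjusted p of 0.05 and 12 passed it, all of Csf3r, Il11ra1 and Il13ra1. The 303 leave out the DESeq2 refits with libraries omitted. Some of those refits also called Il2rg, Il17ra, Ptpn6, Il10rb, Sh2b3, Il6ra or Il6st. The edgeR count of genes, 11, became 753 with DESeq2, 46 with limma voom, 397 without a filter, 21 with the filter at 5 CPM and 590 without WT 4 and KO 3 together. Omitting a library gave 7 to 284. The count of members called, 0, became 3 with DESeq2, 2 without a filter and 3 without WT 4 and KO 3 together, and lay between 0 and 2 with a library omitted. Members with an unadjusted p below 0.05, 10, became 17 without both libraries and 5 to 14 with a library omitted. Other pathway genes called, 0, became 1 with library sizes only, 8 with DESeq2, 3 with limma voom and 5 without a filter. They became 2 with the filter at 5 CPM, 6 without both libraries and 0 to 4 with a library omitted. Cish, the gene knocked out, was among them wherever any was called. The DESeq2 count of members, 3, became 7 without both and 0 to 6 with a library omitted, an alternative added after the data were seen. The cause was not tested. The median of the members, -0.14, ran from -0.19 with library sizes only to -0.10 without KO 2 or without WT 2. With the replicate number as a block, edgeR called 430 genes, 2 members (Csf3r and Il11ra1) and 7 other pathway genes. Only WT 4 has the number 4, so in that fit it adds nothing to the genotype difference. The log2 fold changes of Csf3r and Il11ra1 were -1.10 and 1.08 there, and also without WT 4. Same-numbered libraries correlated by 0.0195 to 0.0603 in their deviations, and no KO library correlated best with its own number, so the numbers were not taken as pairs. Depth limits Il2ra, Lifr, Osmr, Il12rb1, Il21r and Stat4, with at most 30 reads a library.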

Other observations

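Ligands of these receptors were mostly at few reads in the macrophages themselves. Of 26 listed ligands, 11 passed the filter, edgeR and DESeq2 called 0, and 3 had an unadjusted edgeR p below 0.05, all higher in KO. Among all tested genes 18% had such a p, 9.15% higher in KO. Il15, which Il15ra presents to neighbouring cells, had 12.0, 14.8 and 8.90 CPM in KO, against 8.76, 6.85, 7.03 and 9.23 CPM in WT, with WT 4 above KO 3, and its adjusted p in edgeR was 0.177 at a log2 fold change of 0.58. Csf1, the ligand of Csf1r, had 6.11, 2.64 and 7.28 CPM in KO, against 1.68, 0.719, 1.46 and 4.38 CPM in WT, again with overlap through WT 4 (edgeR adjusted p 0.235). Il6 had 9.34, 2.99 and 4.12 CPM in KO, against 1.48, 4.47, 1.75 and 2.03 CPM in WT (edgeR adjusted p 0.237). Oncostatin M, Osm, was the most abundant ligand, at 150, 219 and 228 CPM in KO and 101, 168, 346 and 166 CPM in WT, while its receptor chain Osmr had at most 6 reads in a library.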
